A study of Mus musculus with 10 samples.

Results

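Bone marrow cells cultured with adiponectin were followed over 5 days on 5 of the 10 arrays of the series, 1 array from treated cells at each of 4, 10, 24, 72 and 120 h. The marrow came from long bones of male Swiss mice aged 4 to 6 weeks, and the cells of every group were kept in αMEM with 10% fetal calf serum and 10 nM calcitriol, the active form of vitamin D. Treated wells received recombinant mouse adiponectin at 5 µg/ml, and the other 5 arrays hold vehicle (control) cultures of the same times. Each array was labelled from 100 ng of total RNA and read with Affymetrix whole-transcript chemistry, and the deposited values are RMA signals on a log2 scale, so that a difference of 1 is a 2-fold change. The title of the series names lipopolysaccharide contamination, and what is called adiponectin treatment below is the preparation as given. The question put to the treated cultures was how their transcripts changed with time: 72 and 120 h (late, 2 arrays) were set against 4, 10 and 24 h (early, 3 arrays), and a slope per doubling of the hours was fitted over all 5. All 19938 genes with a single annotated symbol entered both fits. With 1 array per time, the times of a phase stood in for replicates, so the spread behind each p-value also holds any change within the phase. Nothing in the labels ties the cultures to separate animals. The p-values therefore measure the spread among these 5 dishes only, and part of it may be technical.

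Fresh marrow holds neutrophils and their precursors, erythroid cells, megakaryocytes, B cell precursors, monocytes and rare stromal cells. In culture, cells that need marrow signals or have a short life leave the dish, while adherent stromal cells and macrophages stay and grow. Calcitriol makes stromal cells express the osteoclast differentiation factor RANKL, which turns cells of the macrophage lineage into osteoclasts, the cells that resorb bone. Adiponectin is a hormone of fat cells that signals through the receptors Adipor1 and Adipor2, and lipopolysaccharide activates macrophages through Toll-like receptor 4.

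The treated arrays had medians of 8.40 to 8.45 over all genes, and the vehicle arrays 8.41 to 8.48 except at 10 h, where the median was 8.27. At 4 h the marrow markers were present in treated cells: the neutrophil granule gene Ltf was at 13.17, the myeloid enzyme Mpo at 13.13, the B cell receptor component Cd79a at 12.36 and the erythroid haem enzyme Alas2 at 12.52. RNA from a whole dish cannot tell fewer cells of a type apart from less RNA per cell.

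Late treated cultures had lost transcripts of neutrophils, platelets, B cells and progenitors and gained transcripts of stromal cells and of some osteoclast genes. Of 19938 genes, 814 rose (4.08% of those tested) and 727 fell (3.65%) between the early and the late arrays (limma, Benjamini-Hochberg adjusted p under 0.05). At least 2-fold changes were found for 277 of the rises (1.39%) and 304 of the falls (1.52%). The slope on log2 hours called 857 rises (4.3%) and 799 falls (4.01%), and 959 genes were called with the same sign by both fits. The median difference over all genes was -0.03.

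These counts depended on single arrays. Leaving out the 4 h array left 319 rises and 348 falls, leaving out 24 h gave 945 and 768, leaving out 72 h gave 685 and 526, and leaving out 120 h gave 76 and 178. Without the 10 h array only 2 genes passed, the falls of Myl4, a myosin light chain, and of the predicted gene Gm1968, both named after their values were seen, so the late-against-early calls of all other genes below were lost there. With all 10 arrays in a fit of 4 groups, which shares the spread with the vehicle cultures, 780 genes rose and 774 fell, and without the 10 h treated array that fit called 321 and 448. The slope lost all its calls without the 72 h array and without the 120 h array (0 each way, against 2084 rises and 1715 falls at an unadjusted p under 0.05 without 72 h, and 1548 and 1434 without 120 h), and had 112 and 90 without the 10 h array, where 200 of its 1656 calls were kept.

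The step from 24 to 72 h held the most genes past 2-fold. From 24 to 72 h, 122 genes were higher (0.612%) and 269 lower (1.35%) by at least 2-fold. At that threshold the other steps held fewer: 16 and 25 genes from 4 to 10 h (0.0802% and 0.125%), 70 and 10 from 10 to 24 h (0.351% and 0.0502%), and 63 and 108 from 72 to 120 h (0.316% and 0.542%). These steps compare 1 array with 1 array, differ in length and carry no test. The counts are per step, not per hour or per doubling of time. The genes called up moved by a median of 0.20 from 10 to 24 h, 0.59 from 24 to 72 h and 0.21 from 72 to 120 h. The genes called down moved by -0.07, -0.69 and -0.20 over the same steps. Of the 814 rises, 678 had their highest value at 120 h and 136 at 72 h, and 199 were higher at each time than at the one before. Of the 727 falls, 433 had their highest value at 4 h, 594 their lowest at 120 h, and 243 were lower at each time than at the one before. The choice of the genes fixes part of this pattern, since a late rise was what selected them.

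**Figure D1:**
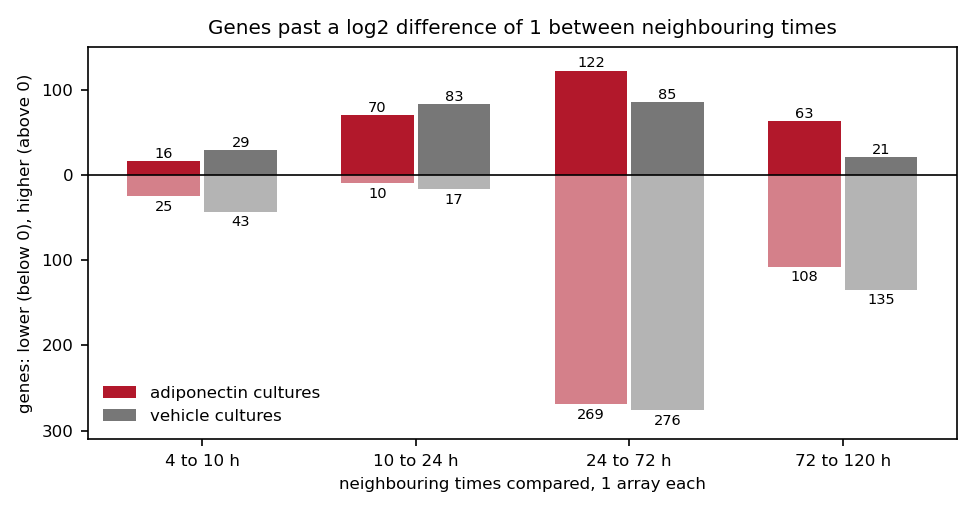
Number of genes whose log2 value differed by at least 1 between neighbouring times, higher above the line and lower below it, in adiponectin (red) and vehicle (grey) cultures. The steps differ in length, and the counts are not scaled to it. The step from 24 to 72 h has the tallest bars, with 122 higher and 269 lower genes in treated cells and 85 and 276 (0.426% and 1.38%) in vehicle cells.

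Each of the 39 gene lists was summarised as its median difference from the 4 h treated array. The neutrophil and platelet lists had medians from -0.67 (primary granules) to 0.03 (megakaryocytes) at 24 h and stood at -3.07 (primary granules), -2.75 (megakaryocytes) and -2.68 (late neutrophil genes) at 120 h. The stromal list stood at 0.23 at 24 h, 0.74 at 72 h and 0.67 at 120 h, and the complement list at 0.55, 0.70 and 0.89. The type I interferon list stood above its start at 10 and 24 h (0.10 and 0.34) and below it at 72 and 120 h (-0.09 and -0.25). Members of a list are not replicates, and these medians are descriptions. Late against early, 4.08% of all genes rose and 3.65% fell, and the list counts below stand beside these shares.

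**Figure D2:**
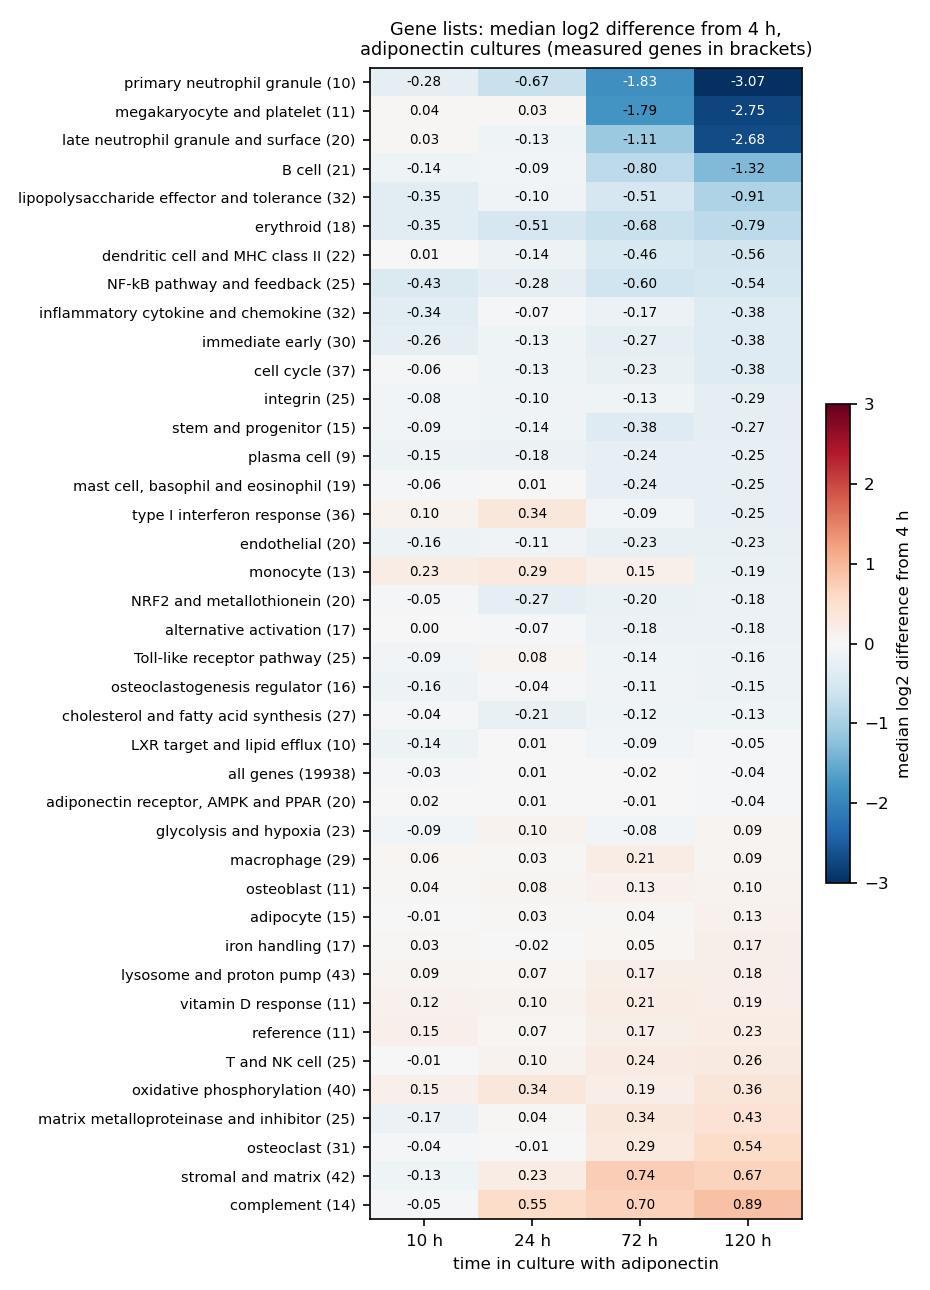
Median log2 difference from the 4 h array for each gene list at 10, 24, 72 and 120 h in adiponectin cultures, with the number of measured genes in brackets; blue is below and red above the 4 h value. The primary neutrophil granule list reaches -3.07 at 120 h and the complement list 0.89, while the median of all genes stays within 0.04 of 0.

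Neutrophil genes were among the largest falls. Ly6g, the surface marker that defines mouse neutrophils, had log2 values of 12.59, 12.62, 12.47, 9.71 and 7.95 at 4, 10, 24, 72 and 120 h. The early arrays lay close together and both late arrays lay below them, the 120 h array lowest. The difference of -3.73 ± 0.46 (estimate ± SE; 13.3-fold lower; limma adjusted p = 0.0114) was the largest of all called genes. The antimicrobial peptide gene Camp read 12.54, 12.77, 12.31, 10.23 and 8.71 and fell by 3.07. The iron-binding granule protein gene Ltf read 13.17, 13.32, 13.03, 11.36 and 9.42 and fell by 2.79, and its early and late values did not overlap. Pglyrp1, a peptidoglycan-binding granule protein, fell by 2.86, Serpinb1a, an inhibitor of neutrophil elastase, fell by 3.03 and Serpinb10, another serpin of marrow cells, fell by 2.96. Of 20 late neutrophil genes measured, 12 fell and 0 rose, with a median of -1.88 for the list. The chitinase-like gene Chil3 (-2.77), the surface protein gene Cd177 (-2.69) and the alarmin gene S100a8 (-1.99, adjusted p = 0.0499) were among the 12, and the call of S100a8 was lost in the 4-group fit (adjusted p = 0.0648). Lcn2, a siderophore-binding granule protein that macrophages also make, had a difference of -1.49 and did not pass (adjusted p = 0.0548).

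The primary granule enzymes are made earlier in neutrophil development. Of the 10 genes measured for their list, which also holds genes that are not enzymes, 8 fell late. Elane, neutrophil elastase, read 13.21, 12.62, 12.12, 11.26 and 10.00, so it was lower at every time than at the one before. Its difference was -2.02 ± 0.43 (adjusted p = 0.0422) and its slope -0.60 ± 0.07 per doubling of time (adjusted p = 0.0131). Mpo, myeloperoxidase, fell by 2.11, Ctsg, cathepsin G, fell by 2.14, Ms4a3 fell by 2.23 and the ficolin gene Fcnb fell by 2.27. All 10 genes of this list had called falling slopes (4.01% of all genes), and the median difference was -2.05. In vehicle cultures the list fell further, with a median of -2.66. The difference between the treated and the vehicle course had a median of 0.49 and was positive at an unadjusted p under 0.05 for 6 of the 10 genes (3.55% of all genes), among them Elane (0.92 ± 0.23), but none passed after adjustment. With the 4, 10, 24, 72 or 120 h array left out there were 6, 0, 9, 16 and 11 called falls in the late neutrophil list and 4, 0, 10, 7 and 2 in the primary granule list.

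Platelet and megakaryocyte genes fell as a group, 9 of 11 measured with 0 rises and a list median of -2.17. Gp5, a subunit of the platelet receptor for von Willebrand factor, read 11.27, 11.33, 11.39, 9.19 and 7.78, so that its early values lay within a narrow range and its late values lay well below. It fell by 2.85 (SE 0.37; adjusted p = 0.0126). Gp9, a second subunit of that receptor, fell by 2.79, the platelet integrin subunit Itga2b fell by 2.50 and the platelet tubulin Tubb1 fell by 2.55. The integrin partner Itgb3, which osteoclasts also use, fell by 1.48 and was higher at 120 h (10.83) than at 72 h (10.32). Outside that list, F2rl2, a thrombin receptor, read 12.23, 12.14, 11.83, 9.38 and 7.73 and fell by 3.51. The platelet granule protein gene Mmrn1 read 10.59, 10.43, 10.40, 8.07 and 5.95 and fell by 3.46. Alox12, the platelet lipoxygenase, fell by 3.13, P2rx1, the ATP-gated channel of platelets, fell by 2.79, and Mfsd2b, which exports sphingosine 1-phosphate from red cells and platelets, fell by 3.07. The platelet chemokine gene Ppbp read 13.98, 14.08, 13.87, 12.71 and 10.48 and missed the threshold at -2.38 (adjusted p = 0.0619). Dropping the 4, 10, 24, 72 or 120 h array left 7, 0, 8, 10 and 9 called falls in the list.

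Megakaryocyte genes are known targets of GATA1, whose own transcript Gata1 read 9.81, 9.77, 9.74, 8.00 and 7.56 and fell by 2.00 (adjusted p = 0.00507). RefSeq promoters (GRCm38.p6, 250 bases before to 50 after the start) were at hand for 8 of the 11 listed genes. The letters AGATAA, on either strand, a form of the GATA motif added to the search after these values were seen, were found in 3 of the 8 promoters (37.5%), against 11.2% of all 32851 promoters. A stretch of the Gp5 promoter is shown because it holds the letters at 2 places, in capitals as TTATCT, the reverse complement. A match is a description of these letters and not a binding site.
Gp5 (chr16:30310833-30310952, minus strand): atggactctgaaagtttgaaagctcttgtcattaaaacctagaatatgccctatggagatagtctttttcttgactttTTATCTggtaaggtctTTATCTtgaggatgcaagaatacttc

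Erythroid genes included some that were already low at 24 h. Alas2, the enzyme that starts haem synthesis in red cell precursors, read 12.52, 11.61, 9.08, 7.80 and 7.69. It had dropped by more than 3 log2 units at 24 h and changed little after 72 h. Its late difference of -3.32 did not pass (adjusted p = 0.0878), while its slope of -1.07 ± 0.10 per doubling did (adjusted p = 0.0111). Slc4a1, the anion exchanger band 3 of red cells, read 10.58, 9.17, 8.20, 8.05 and 8.14, with a called slope of -0.48 and an uncalled late difference of -1.22. It was one of the genes with the widest gap between the 4 h array and the next highest treated array. Slc14a1, the urea transporter of red cells, read 11.84, 11.76, 11.24, 8.23 and 8.16 and fell by 3.42 (SE 0.18; adjusted p = 0.00341). Of 18 erythroid genes, 4 fell and 0 rose late, and 11 had called falling slopes (4.01% of all genes). The counts without the 4, 10, 24, 72 or 120 h array were 3, 0, 6, 4 and 1 called late falls.

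B cell and progenitor genes were lower late. Cd79a read 12.36, 12.15, 12.34, 11.34 and 9.50, and its difference of -1.86 missed the threshold (adjusted p = 0.0732) although both late arrays lay below the early ones. Vpreb3, of the pre-B cell receptor, fell by 2.55, Cd24a, a surface protein of B cell precursors and other young blood cells, fell by 2.47, the transcription factor Spib fell by 2.18 and Fcrla fell by 2.13. Of 21 B cell genes, 9 fell and 0 rose, with a median of -1.01. Myb, a transcription factor of blood progenitors, read 11.24, 11.12, 10.46, 8.86 and 7.81, lower at every time than before, and fell by 2.61 (slope -0.71 ± 0.09, adjusted p = 0.0155). Adgrg1 fell by 2.20, Cd34 fell by 1.34, Erg fell by 1.29 and the receptor Flt3 fell by 1.20. Kit, the receptor of stem cell factor, had an uncalled difference of -0.92 and a called slope of -0.29. Of 15 progenitor genes, 5 fell and 2 rose, and the rises were those of Hoxa9 (0.36) and Sox4 (0.74), which lie outside the naming rule. The plasma cell list was mixed, with 2 falls and 1 rise among 9 measured genes and a median of -0.15. The factors Irf4 and Pou2af1 fell by 1.74 and 2.09, and Jchain rose by 1.33. The mast cell protease Cpa3 (-2.13), the histamine enzyme Hdc (-2.02), the basophil protease Prss34 (-1.86) and the eosinophil ribonuclease Ear6 (-1.69, which has close copies) were among the 6 of 19 mast cell, basophil and eosinophil genes that fell. With the 4, 10, 24, 72 or 120 h array left out there were 4, 0, 7, 11 and 8 called falls among B cell genes, 5, 0, 7, 5 and 0 among progenitor genes and 6, 0, 6, 6 and 6 among mast cell, basophil and eosinophil genes.

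Some dendritic cell genes and a lipid receptor fell. Olr1, the receptor for oxidised low-density lipoprotein, read 11.82, 10.74, 9.81, 8.09 and 6.90, lower at every time than at the one before, and fell by 3.29 (SE 0.60; adjusted p = 0.0274). Siglech, a marker of plasmacytoid dendritic cells, fell by 1.85 and the chemokine Ccl22 fell by 1.13. Among the 22 genes for dendritic cells and MHC class II, 5 fell and 0 rose (median -0.60). Called falls in this list numbered 2, 0, 9, 9 and 1 without the 4, 10, 24, 72 or 120 h array. Called rises numbered 0, 0, 1, 1 and 0. Clec10a, a lectin of dendritic cells and macrophages, read 7.72, 8.10, 8.46, 8.72 and 10.39, with a called slope of 0.45 and an uncalled late difference. The steepest called falling slopes outside the genes above included Cecr2, a chromatin regulator (-0.70 per doubling), and the organic anion transporter Slco4c1 (-0.69).

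**Figure D3:**
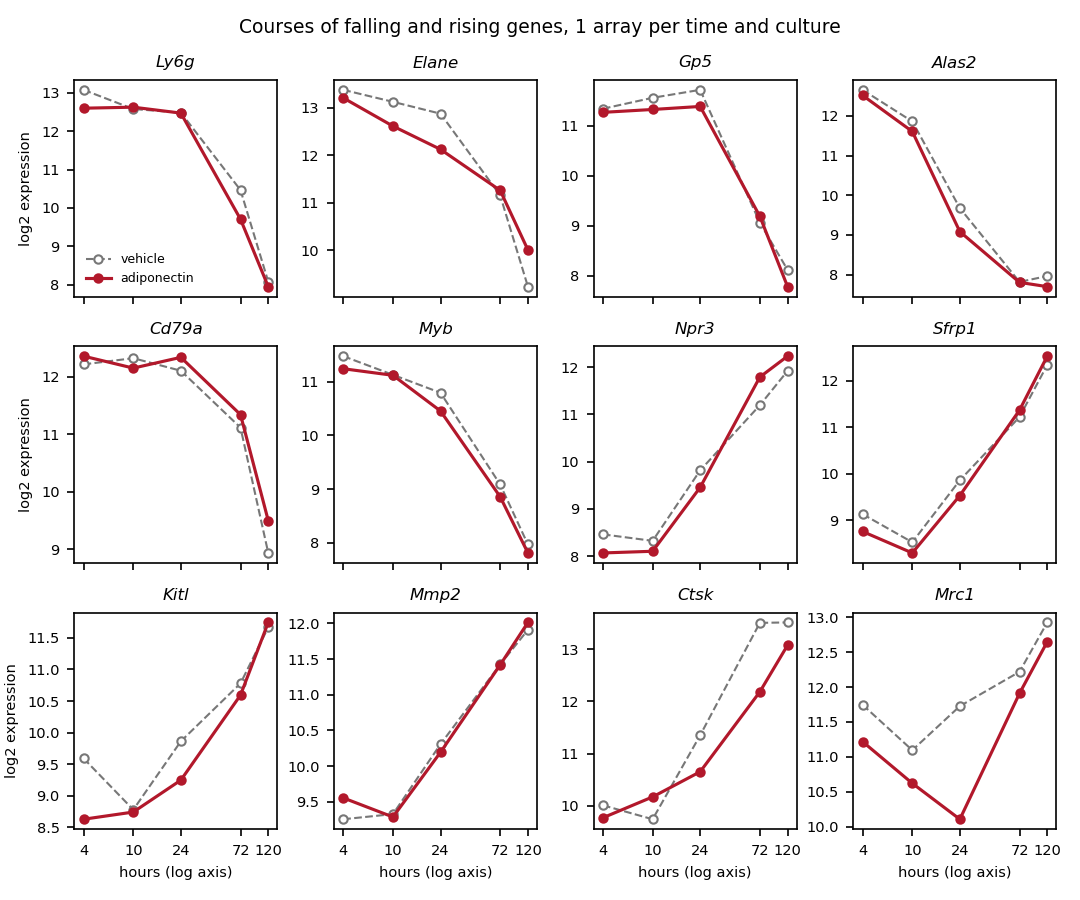
Log2 expression at 4, 10, 24, 72 and 120 h (log time axis) of 12 falling or rising genes in adiponectin (filled red) and vehicle (open grey) cultures, 1 array per point. Ly6g, Gp5 and Cd79a hold their level to 24 h and drop after it, Alas2 drops from 4 h on, and Npr3, Sfrp1, Kitl and Mmp2 climb after 10 h.

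Few cell cycle genes passed late against early. Mki67, the proliferation marker, read 11.94, 11.81, 11.08, 11.00 and 10.98, so that it dropped between 10 and 24 h and was level after that. Its late difference of -0.62 did not pass (adjusted p = 0.213) and its slope of -0.22 did (adjusted p = 0.0294). The mitotic kinesin Kif11 read 10.94, 10.51, 10.16, 9.84 and 9.78, the spindle protein Nusap1 had a difference of -0.66 and the topoisomerase Top2a one of -0.55, and all 3 had a called slope. Of 37 cell cycle genes, 1 fell late (2.7%, against 3.65% of all genes), Cdc45 (-0.51, named after its value was seen), and 0 rose. Falling slopes were called for 8 (4.01% of all genes). The list median was -0.21 in treated and -0.52 in vehicle cultures. The course difference was positive at an unadjusted p under 0.05 for 9 of the 37 genes (3.55% of all genes) and negative for 0 (9.91%), and none passed after adjustment. The count was 0 without the 4, 10 or 120 h array, 6 without 24 h and 1 without 72 h.

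Cell cycle promoters often hold CHR elements, written TTTGAA, and CCAAT boxes. On either strand, TTTGAA was found in 14 of 31 promoters at hand for the list (45.2%), against 17.9% of all promoters of that length, and CCAAT in 23 of 31 (74.2%), against 37.4%. The stretches below are those of 3 of the 4 members with the widest late differences, shown because they hold the letters. TTTGAA or its reverse complement TTCAAA is in capitals. No stretch is shown for Nusap1.
Mki67 (chr7:135716452-135716571, minus strand): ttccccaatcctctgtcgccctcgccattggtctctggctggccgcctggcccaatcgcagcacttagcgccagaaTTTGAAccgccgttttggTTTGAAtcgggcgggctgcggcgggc
Kif11 (chr19:37376262-37376381, plus strand): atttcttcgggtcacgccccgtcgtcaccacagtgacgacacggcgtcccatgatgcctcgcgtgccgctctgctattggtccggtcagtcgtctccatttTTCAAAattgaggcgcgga
Top2a (chr11:99024190-99024309, minus strand): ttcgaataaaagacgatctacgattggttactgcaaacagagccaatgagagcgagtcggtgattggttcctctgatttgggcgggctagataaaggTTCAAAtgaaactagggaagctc

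The largest rises included genes of stromal and connective tissue cells. Npr3, the clearance receptor for natriuretic peptides, read 8.07, 8.10, 9.46, 11.79 and 12.23. Values were lowest at 4 and 10 h, intermediate at 24 h and highest at 72 and 120 h, and the difference of 3.47 ± 0.43 (11.1-fold higher; adjusted p = 0.0115) was the largest rise. The anion exchanger gene Slc26a7 read 7.50, 7.70, 8.81, 11.13 and 11.64 and rose by 3.38. The secreted Wnt antagonist gene Sfrp1 read 8.76, 8.30, 9.53, 11.37 and 12.53 and rose by 3.08. Another Wnt antagonist, Wif1, rose by 2.53, while Rspo2, a secreted protein that strengthens Wnt signals, rose by 2.49 with a slope of 0.72 ± 0.08 per doubling. Osr1, a transcription factor of mesenchymal cells, rose by 2.89, and the hormone stanniocalcin, Stc1, by 2.89. The matrix glycoprotein gene Efemp1 read 7.03, 6.92, 7.17, 8.70 and 10.82, so its 120 h array stood apart from the rest. The cell-surface peptidase Mme rose by 2.52, carboxypeptidase E, Cpe, by 2.54 and Ppy, named for pancreatic polypeptide, by 2.71. The kininogen genes Kng1 and Kng2 rose by 2.72 and 2.55, but they are near-identical and their probes may share signal. Fcrls, an Fc receptor-like gene of macrophages and microglia, rose by 2.61.

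Of 42 stromal and matrix genes, 20 rose and 0 fell, with a median of 0.62. Kitl, the stem cell factor, read 8.63, 8.74, 9.25, 10.59 and 11.75 and rose by 2.30. The chemokine gene Cxcl12, which holds progenitors in marrow, read 9.70, 9.57, 9.91, 11.31 and 12.51 and rose by 2.18. The matrix proteoglycan Ogn rose by 2.34 and Igfbp4, which binds insulin-like growth factors, by 2.13. The collagen genes Col1a1 and Col3a1 read 10.95, 11.17, 11.78, 12.58 and 11.88 and 9.86, 9.58, 10.16, 10.38 and 10.12, and neither passed (0.93 and 0.39, adjusted p = 0.124 and 0.278), with Col1a1 highest at 72 h. The immunoglobulin-like stromal gene Islr had one of the steepest slopes, 0.67 ± 0.04 per doubling. Among 25 metalloproteinases and inhibitors, 9 rose and 2 fell. Mmp2, gelatinase A, read 9.56, 9.29, 10.19, 11.42 and 12.01 and rose by 2.04, the aggrecanase Adamts5 rose by 1.93 and the membrane-bound Mmp16 by 1.52, while the leukocyte enzyme Mmp25 fell by 2.66. Dropping the 4, 10, 24, 72 or 120 h array left 11, 0, 22, 15 and 2 called rises in the stromal list and 5, 0, 8, 7 and 0 among the metalloproteinases.

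Of 11 osteoblast genes 3 rose and 0 fell. Alpl, the alkaline phosphatase of bone-forming cells, read 10.00, 10.04, 10.94, 12.02 and 11.99 and rose by 1.68 (adjusted p = 0.0219). The transcription factor Dlx5 rose by 1.02 and the proteoglycan Omd by 0.82, and Sp7, a defining factor of osteoblasts, read 7.82, 8.18, 8.82, 9.61 and 8.39 with its peak at 72 h and no call. The rises numbered 1, 0, 3, 0 and 0 without the 4, 10, 24, 72 or 120 h array. Adipoq, the adiponectin gene itself, read 7.29, 7.23, 7.38, 8.06 and 10.05 in treated and 7.57, 7.12, 7.74, 9.16 and 10.59 in vehicle cultures. Its late difference of 1.75 in treated cells did not pass (adjusted p = 0.105). Igf2, insulin-like growth factor 2, read 8.31, 8.04, 8.24, 9.49 and 11.80 and stood 2.31 above the next treated array at 120 h, with no call (adjusted p = 0.0626).

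Some osteoclast genes rose in treated cultures, and the values of vehicle cultures are given beside them. Ctsk, cathepsin K, the collagen-degrading enzyme of osteoclasts, read 9.77, 10.17, 10.65, 12.18 and 13.07 in treated and 10.01, 9.74, 11.35, 13.50 and 13.51 in vehicle cells. It was higher at every treated time than at the one before and rose by 2.43 ± 0.33 (adjusted p = 0.0138), against 3.14 in vehicle cells. Oscar, an osteoclast receptor, read 8.63, 8.61, 9.13, 10.51 and 11.91 against 8.46, 8.31, 9.51, 12.44 and 12.40, so that the treated 72 h array lay below the vehicle array of that time by more than at 120 h. It rose by 2.42 against 3.66. The fusion gene Ocstamp rose by 2.06 and the sodium/hydrogen antiporter Slc9b2 by 1.98. Dcstamp, needed for osteoclast fusion, read 8.53, 8.59, 8.36, 9.13 and 10.52 against 8.22, 8.40, 9.05, 11.05 and 11.09 and Calcr, the calcitonin receptor of mature osteoclasts, 7.33, 7.08, 7.12, 7.63 and 9.03 against 7.15, 7.13, 6.91, 8.74 and 9.48. Neither passed in treated cells (adjusted p = 0.0887 and 0.133), where the 120 h array alone was high, and both passed in vehicle cells (2.51 and 2.05).

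Of 31 osteoclast genes, 7 rose and 1 fell in treated cultures, and 22 had both late arrays above all early ones (17.9% of all genes). In vehicle cultures 21 rose and 1 fell (3.08% and 3.68% of all genes). The called counts of each culture come from a separate fit and do not compare the cultures. The list medians were 0.45 and 1.04. The course difference, treated minus vehicle, was negative at an unadjusted p under 0.05 for 15 of the 31 (9.91% of all genes) and positive for 0, with a median of -0.52, and none passed after adjustment. It was -1.24 ± 0.38 for Oscar (limma adjusted p = 0.34), -1.29 for Slc9b2 and -0.78 for Acp5, the tartrate-resistant acid phosphatase. The treated values of the master regulator Nfatc1 (0.37), of the RANK receptor Tnfrsf11a (0.34) and of Mmp9 (0.55) did not pass late against early. Of the regulators, the growth factor Csf1 rose by 0.85, while its receptor Csf1r had a difference of 0.11 that did not pass. The counts without the 4, 10, 24, 72 or 120 h array were 2, 0, 6, 12 and 4 called rises in treated cells.

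**Figure D4:**
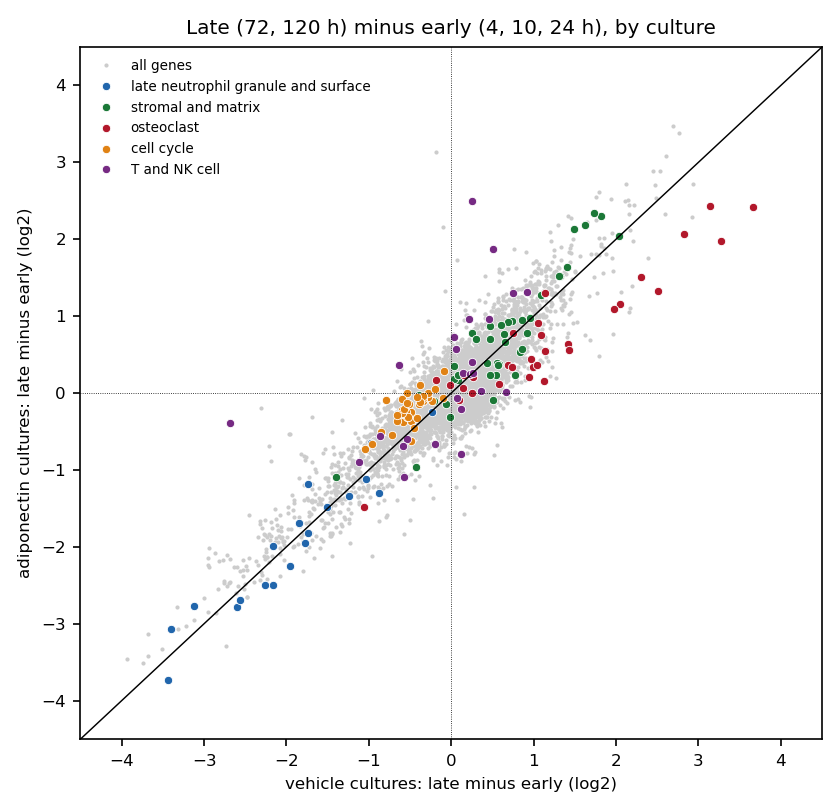
Late minus early log2 difference in adiponectin (vertical) against vehicle (horizontal) cultures for all 19938 genes (grey) and for 5 gene lists (colours), with the line of equal change. The late neutrophil list has medians of -1.88 (treated) and -1.81 (vehicle), the stromal list 0.62 and 0.57 and the osteoclast list 0.45 and 1.04, while Gzmb lies above the line at 2.50 against 0.26.

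Of the granzymes, proteases of cytotoxic lymphocytes, Gzmb and Gzmd rose in treated cultures, and Gzmd had the largest positive course difference of all genes, which did not pass after adjustment. Gzmb, granzyme B, read 6.83, 6.84, 8.23, 10.04 and 9.57 in treated and 6.57, 6.84, 6.68, 7.22 and 6.68 in vehicle cells. The treated values were higher from 24 h on and both late arrays lay above all early ones, while the vehicle values stayed within 1 log2 unit of each other. Gzmb rose by 2.50 ± 0.43 (adjusted p = 0.0236), against 0.26 in vehicle cells, a course difference of 2.25 ± 0.39 (limma adjusted p = 0.198). Gzmd read 6.12, 6.65, 7.11, 9.20 and 10.33 against 6.97, 7.12, 7.59, 7.25 and 6.83 and rose by 3.13, with a course difference of 3.32 ± 0.38 (adjusted p = 0.137). Gzmf read 5.88, 6.08, 5.82, 6.53 and 8.78, so that it stood apart at 120 h alone and did not pass (adjusted p = 0.147). Gzmc to Gzmg are neighbouring close copies, so their probes may share signal. The course difference passed for Gzmb when the 24 h pair was left out (2.72, adjusted p = 0.0136) and for Gzmd and Gzmf when the 72 h pair was left out (4.10 and 2.76, adjusted p = 0.00241 and 0.00864). Without the 72 h pair it also passed for 3 genes that are no granzymes: Nkg7, a granule protein of NK cells (2.91, adjusted p = 0.0142), Slfn1, a schlafen gene (2.29, adjusted p = 0.0458), and 1 immunoglobulin segment (4.31, adjusted p = 0.00446). Late against early in treated cells, Nkg7 (-0.39) and Slfn1 (-0.54) did not pass.

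Other lymphoid genes also rose in treated cultures. Il2rb, the receptor subunit shared by interleukins 2 and 15, read 7.41, 7.40, 8.27, 9.34 and 9.78 against 7.50, 7.44, 7.40, 8.12 and 7.78 and rose by 1.87 in treated cells. Cd4, which macrophages can also carry, rose by 1.30 and the costimulatory receptor Cd28 by 1.32. Jchain, the joining chain of antibodies, read 6.64, 6.45, 6.46, 8.02 and 7.68 against 6.63, 5.96, 6.57, 6.45 and 6.18, a rise of 1.33 in treated cells and a course difference of 1.41 ± 0.19 (limma adjusted p = 0.168). Of 25 T and NK cell genes, 9 rose and 4 fell in treated cultures and 1 rose and 4 fell in vehicle cultures. These counts come from separate fits and do not compare the cultures. The course difference was positive at an unadjusted p under 0.05 for 9 of the 25 genes (3.55% of all genes) and negative for 5 (9.91%). Its median was 0.15, and none passed after adjustment. The treated falls were those of Cd8a, Cd8b1, Cd3d and Lef1 (-0.67, -1.09, -0.56 and -0.90). They encode the coreceptor chains, a subunit of the T cell receptor complex and a T cell factor. The rises included the killing protein Prf1 (0.96) and the NK receptor Ncr1 (0.97). These 6 genes lie outside the naming rule. The list's median difference was 0.25, and its mean level was 8.12, 8.10, 8.32, 8.43 and 8.39 at the 5 times. With the 4, 10, 24, 72 or 120 h array left out there were 2, 0, 8, 6 and 2 called rises. When only genes above the median level were tested, 2 of the list rose and 1 fell. Most of its calls were therefore of genes below that level.

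Macrophage genes included 7 that rose. Csf1r, the receptor that macrophages depend on, read 13.15, 13.15, 12.92, 13.21 and 13.17. Mrc1, the mannose receptor, read 11.22, 10.62, 10.11, 11.91 and 12.65, so it dropped to 24 h and then passed its starting level, and it rose by 1.63 late against early (adjusted p = 0.0426). The complement component C1qa rose by 1.07 and the elastase Mmp12 by 0.86. Of 13 genes listed for monocytes, 2 rose and 1 fell. The fractalkine receptor Cx3cr1, of that list, rose by 1.18 in treated cells against 0.11 in vehicle cells. Vsig4, the complement receptor of resident macrophages, read 9.53, 9.16, 9.17, 10.73 and 9.70 against 10.07, 10.11, 10.71, 10.33 and 9.69, with its treated peak at 72 h and no call. Of 29 macrophage genes, 7 rose and 1 fell, and of 14 complement genes 4 rose and 0 fell. C4b read 7.38, 7.57, 8.17, 8.82 and 9.61 and rose by 1.51. C2 and the C1 inhibitor Serping1 had slopes of 0.54 and 0.51 that passed, and late differences of 1.60 and 1.71 that did not. The scavenger receptor Marco read 10.65, 11.47, 11.88, 10.85 and 10.29, highest at 24 h. The monocyte receptor Ccr2 read 10.39, 10.80, 10.70, 9.83 and 8.32 and did not pass (-1.56), while Treml4 fell by 1.39. Without the 24 h array 8 complement genes rose, and without the 4, 10, 72 or 120 h array 0, 0, 1 and 0; for macrophage genes leaving out the 4, 10, 24, 72 or 120 h array gave 3, 0, 8, 2 and 1 rises.

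Some interferon-induced genes fell in treated cultures while their levels stayed above those of vehicle cells. Cxcl10, a chemokine induced by interferons, read 13.97, 12.69, 13.16, 11.46 and 10.85 in treated and 9.68, 9.83, 10.70, 9.73 and 8.49 in vehicle cells. Every treated array was above every vehicle array, the late treated arrays were below the early ones, and the fall was 2.12 (SE 0.37; adjusted p = 0.0247). Rsad2, the antiviral protein viperin, read 13.28, 12.58, 12.74, 11.40 and 10.88 against 10.60, 9.77, 9.80, 9.24 and 8.22 and fell by 1.72. The nuclease gene Isg20 fell by 1.64. Ifit1 had a difference of -0.66 that missed the threshold (adjusted p = 0.0584), the interferon factor Irf7 read 12.92, 13.54, 13.81, 13.65 and 13.57 with no call, and the GTPase gene Iigp1 read 7.58, 7.95, 9.61, 9.92 and 10.45, with a called rising slope of 0.61. Of 36 interferon-response genes, 11 fell and 0 rose in treated cultures, with a median of -0.30, and 2 fell and 1 rose in vehicle cultures. Here too the counts come from separate fits and do not compare the cultures. The course difference was negative at an unadjusted p under 0.05 for 8 of the 36 genes (9.91% of all genes) and positive for 0 (3.55%). Its median was -0.29, and none passed after adjustment. The list was higher in treated than in vehicle cells at every time, by a median of 1.48, 2.07, 2.03, 1.44 and 1.87 at 4, 10, 24, 72 and 120 h. Dropping the 4, 10, 24, 72 or 120 h array left 8, 0, 8, 9 and 2 called falls.

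Interferon-stimulated genes are known to be switched on through a promoter element called the ISRE. The letters GAAA, repeated after any 2 bases, on either strand, were found in 16 of 33 promoters at hand for the list (48.5%) and in 4 of the 10 promoters of its called members (40%), against 3.44% of all promoters of that length. The stretches of 2 called members are shown, with the match in capitals, read on the gene's strand for Cxcl10 and as its reverse complement for Rsad2.
Cxcl10 (chr5:92349020-92349139, minus strand): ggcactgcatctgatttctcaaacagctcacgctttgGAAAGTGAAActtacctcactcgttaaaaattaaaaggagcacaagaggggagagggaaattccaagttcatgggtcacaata
Rsad2 (chr12:26456543-26456662, minus strand): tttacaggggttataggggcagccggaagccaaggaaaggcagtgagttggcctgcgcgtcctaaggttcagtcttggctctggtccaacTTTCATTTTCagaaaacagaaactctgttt

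Few cytokine genes passed late against early. Tnf, tumour necrosis factor, read 12.31, 11.22, 11.26, 10.39 and 10.56, with its highest value at 4 h, an uncalled late difference of -1.12 (adjusted p = 0.104) and a called slope of -0.35. Il1b read 11.46, 10.50, 11.01, 10.40 and 9.18, Il6 7.31, 6.48, 7.70, 7.17 and 6.13 and Il10 7.87, 7.68, 9.13, 8.04 and 8.69, and none of the 3 passed late against early. Il1a fell by 1.56. The neutrophil chemokine Cxcl5 read 8.32, 7.80, 9.27, 10.26 and 10.34 and rose by 1.83, and the monocyte chemokine Ccl8 read 7.23, 7.64, 9.80, 9.45 and 10.74, with a slope of 0.68 ± 0.12 per doubling that passed and a late difference that did not. Of 32 cytokines and chemokines 3 fell (9.38%, against 3.65% of all genes) and 1 rose (3.12%, against 4.08%). Acod1, which makes the metabolite itaconate, read 13.72, 13.32, 13.22, 11.78 and 11.22 against 10.05, 10.36, 10.46, 9.23 and 7.99 and fell by 1.92 (adjusted p = 0.00932). Gpr84, a fatty acid receptor induced by endotoxin, read 13.08, 12.40, 12.13, 11.36 and 10.85 and fell by 1.43, while Nos2, inducible nitric oxide synthase, read 9.01, 8.13, 9.36, 8.13 and 8.01 and did not pass. The chemokine Ccl5 read 13.23, 13.55, 13.89, 13.47 and 12.06 and did not pass. Saa3, an acute-phase protein, read 12.76, 12.93, 13.67, 12.90 and 11.58 against 10.35, 10.78, 11.15, 9.13 and 8.03, with a treated difference of -0.88 that did not pass and a called fall of -2.19 in vehicle cells. Its course difference was 1.31 ± 0.16 (limma adjusted p = 0.137). Of 32 lipopolysaccharide effector and tolerance genes 4 fell and 0 rose, and of 25 NF-kB pathway genes 5 fell and 0 rose. The mitochondrial dismutase Sod2, an NF-kB target, fell by 0.86 in treated cells and had a difference of 0.06 in vehicle cells. The subunit gene Rel fell by 0.67. The counts without the 4, 10, 24, 72 or 120 h array were 4, 0, 5, 4 and 2 called falls among the effector genes and 1, 0, 4, 2 and 1 in the NF-kB list.

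**Figure D5:**
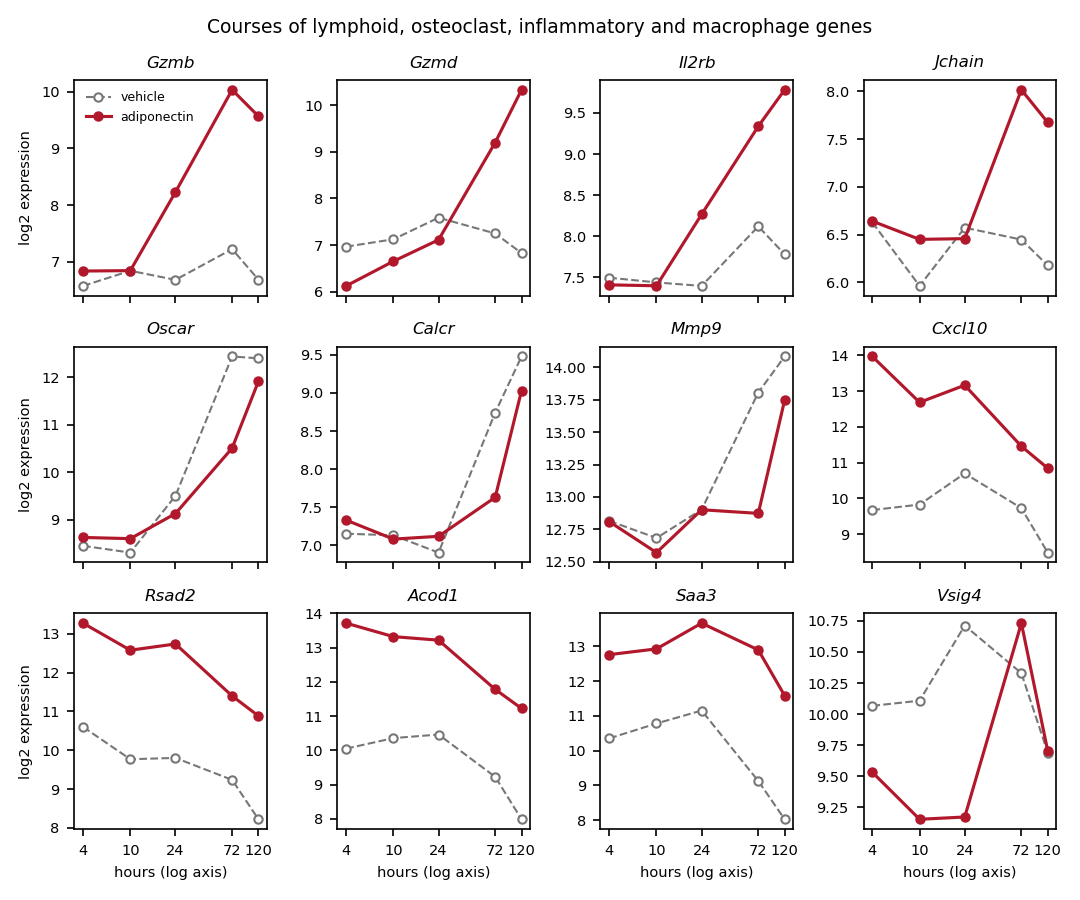
Log2 expression at 4, 10, 24, 72 and 120 h (log time axis) of 12 lymphoid, osteoclast, inflammatory and macrophage genes in adiponectin (filled red) and vehicle (open grey) cultures, 1 array per point. Late treated values of Gzmb, Gzmd, Il2rb and Jchain lie above vehicle, the 72 h treated values of Oscar and Mmp9 lie below vehicle, and Cxcl10, Rsad2, Acod1 and Saa3 stay above vehicle at all times.

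The adiponectin receptors did not pass. Adipor1 read 12.62, 12.61, 12.63, 12.67 and 12.62 and Adipor2 10.94, 10.87, 10.95, 10.75 and 10.93, differences of 0.02 and -0.07 that did not pass. Tlr4, the endotoxin receptor, read 9.34, 9.40, 9.75, 10.05 and 10.17 and rose by 0.61 (adjusted p = 0.0499). This call was lost with the mean of probe sets, the intensity trend, the 4-group fit (adjusted p = 0.0832) or the probe set chosen on treated arrays, and without the 4, 10, 72 or 120 h array. Its cofactor Ly96 had an uncalled difference of 0.18 and the lipopolysaccharide-binding protein gene Lbp fell by 0.58. Of 25 Toll-like receptor pathway genes 1 rose (4.0%, against 4.08% of all genes) and 2 fell (8.0%, against 3.65%), the other fall being that of Tlr1 (-0.76). The calcitriol receptor Vdr read 9.48, 9.50, 10.42, 10.80 and 11.23, with a called slope of 0.38 and an uncalled late difference of 1.22 (adjusted p = 0.0662). Among 11 vitamin D response genes, Cyp27a1, a vitamin D-activating hydroxylase, rose by 0.78 and Camp fell. Pdk4, a kinase that restrains glucose oxidation and a PPAR target, read 7.50, 8.07, 8.59, 9.81 and 10.47, higher at every time than before, and rose by 2.09 (adjusted p = 0.0197). Angptl4, another PPAR target, rose by 0.69 and Pparg itself by 0.66, while the AMPK subunit Prkab1 fell by 0.48. Of 20 adiponectin receptor, AMPK and PPAR genes 2 rose and 2 fell (10.0% each, against 4.08% and 3.65% of all genes). There were 1, 0, 2, 2 and 0 rises and 1, 0, 1, 0 and 0 falls without the 4, 10, 24, 72 or 120 h array.

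Some genes peaked at a time of their own, as seen from the gap to the next highest treated array. Hivep3, a zinc finger gene, read 10.89, 9.59, 9.37, 9.44 and 9.30 and Ccrl2, an atypical chemokine receptor, 11.21, 9.94, 9.82, 9.28 and 9.29, both with the peak at 4 h. Gaps at 10 h were narrower, from 0.55 to 0.75, the widest for the adhesion receptor Adgre4, which read 9.90, 10.71, 9.96, 8.61 and 8.10. At 24 h, among genes open to naming, the widest gaps were those of U90926 (7.37, 6.91, 8.97, 7.07 and 6.66), Scimp, an adaptor of antigen-presenting cells (9.77, 10.06, 11.46, 9.87 and 9.86), and the chemokine Ccl12 (7.38, 7.27, 9.22, 7.68 and 7.92). At 72 h they were those of Vsig4, of the cytokine Il11 (8.62, 8.62, 9.26, 10.29 and 8.30) and of the prostaglandin synthase Ptgs2 (11.16, 10.89, 12.04, 13.03 and 11.61). At 120 h they were those of Igf2, Gzmf and Efemp1. Each peak rests on 1 array and has no test. The predicted gene BC023105 had one of the steepest called rising slopes, 0.72 ± 0.12 per doubling, and read 5.50, 5.18, 7.34, 7.61 and 8.95.

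Vehicle cultures had 614 rises (3.08%) and 733 falls (3.68%) by the same test. Of the treated rises 324 rose in vehicle cells too, which is 39.8% of the treated and 52.8% of the vehicle rises, and 484 falls were shared, 66.6% of the treated and 66% of the vehicle falls. None was called in opposite directions. All 15 of the largest treated falls were called in vehicle cells, as were 12 of the 15 largest rises, the exceptions being Gzmb, Gzmd and Kng2. Both late arrays lay above all early ones for 17.9% of the 19938 genes in treated and 31.5% in vehicle cells. They lay below for 23.7% and 15.7%. Of the 19938 genes, 53 lay above in treated and below in vehicle cells, and 889 the other way. The lower quartile of the vehicle arrays was 7.04 to 7.06 early and 7.18 and 7.23 late. In treated cells it was 7.15 to 7.18 early and 7.15 and 7.10 late. Whether this shift of scale accounts for the uneven counts was not tested.

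A direct test of the course, treated minus vehicle at each time and late against early, called 0 genes in limma at an adjusted p under 0.05. At an unadjusted p under 0.05 it held 708 positive and 1975 negative differences (3.55% and 9.91%). That split depended on scaling: it was 1152 and 913 after median centring and 944 and 853 after repeated quantile normalization. The 10 h vehicle array with the low median enters these differences. Without the 10 h pair there were 1690 positive and 2864 negative ones. What that array adds to the split was not tested. Without the time block, as an interaction over all 10 arrays in 4 groups, the test also called 0 genes each way.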

How the data were processed

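Bone marrow cultures were profiled on 10 arrays, of which the 5 from adiponectin cultures are described and the 5 vehicle arrays serve for comparison. The authors deposited log2 values per probe set. RMA, Affymetrix Expression Console and Partek are named per the submitters' processing notes, with no version or order. Of 35556 probe sets, 21789 had 1 gene symbol. For 999 genes with several, the probe set with the highest mean over all arrays was kept, which left 19938 genes. Signal over background was not at hand, so no dim gene was removed.

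Late against early and the slope were fitted with limma 3.58.1 in R 4.3.3 (lmFit, eBayes, 3 residual degrees of freedom, two-sided) and checked on simulated data. The course difference used the 5 treated minus vehicle differences, paired by the time in the labels. p-values were adjusted over all genes. The number of arrays limits the precision. Members and lists were chosen with earlier results of these data known. Genes named were the 15 largest called rises and falls without overlap, the 6 steepest other slopes each way, the 4 widest differences per list, called course differences, the 3 widest single-time peaks per time and a fixed set. Myl4, Gm1968, Cdc45, Hoxa9, Sox4, Cd8a, Cd8b1, Cd3d, Lef1, Prf1, Ncr1, Nkg7 and Slfn1 were added after their values were seen.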

Additional observations from a re-analysis of the deposited data

How the results depend on the processing

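All 1541 late-against-early calls kept their sign under each scaling, prior, probe set and 4-group alternative and without each array, except that 1 did not keep its sign with the mean of probe sets and that the filter on dim genes tested 1179 of them. Late against early without 1 treated array, called rises numbered 319, 0, 945, 685 and 76 (4, 10, 24, 72 and 120 h left out) and falls 348, 2, 768, 526 and 178, and an unadjusted p under 0.05 held for 1541 without each. The 1541 genes were selected on these same arrays, which nearly fixes their sign and favours a low unadjusted p. Keeping either without 1 array is therefore no test of the calls. In the fit of all 10 arrays in 4 groups, chosen after seeing the data for leaving arrays out, called rises numbered 398, 321, 818, 625 and 27, and called falls 437, 448, 692, 551 and 99. The slope called 862, 112, 986, 0 and 0 rises and 564, 90, 963, 0 and 0 falls. With untransformed hours it called 1313 rises. The course difference called 0 to 5 positive and 0 to 0 negative differences without 1 pair, and 0 and 0 without the replicate block. Genes past a step of log2 0.5 numbered 534, 733, 1527 and 730 for the 4 steps, and past log2 2 they numbered 0, 4, 18 and 10. From 24 to 72 h, 714 genes were higher and 813 lower past log2 0.5, and 4 and 14 past log2 2. With all treated arrays kept, the calls of 9 named genes were lost under at least 1 alternative: Tlr4, S100a8, Fdps, Ywhaz, Sox4, Hoxa9, Egln3, Elane and Mrc1. The medians of the 39 lists kept their sign after centring. Uncalled late differences that turned sign were Il10 (-0.0418 without 4 h, -0.14 without 10 h, -0.19 without 120 h), Irf7 (-0.0678 without 4 h), Ccl12 (0.47 without 24 h), Adipor2 (0.0166 without 72 h), Il11 (-0.53 without 72 h) and Il6 (0.0083 without 120 h), and the cause was not tested.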

Other observations

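Of 43 lysosome and proton pump genes, 3 rose (6.98%, against 4.08% of all genes) and 0 fell. The rises were those of the sugar-cleaving enzymes Glb1 (0.56) and Naglu (0.59) beside Ctsk, and 21 had both late arrays above all early ones (17.9% of all genes). The letters TCACGTGA, the CLEAR core, were in 6 of 40 promoters at hand for that list (15%), against 0.974% of all promoters. Of the 3 promoters of its called members, 0 held them. Atp6v0d2, a pump subunit of osteoclasts, read 11.56, 11.52, 10.79, 12.24 and 12.95, lowest at 24 h and highest at 120 h, against 12.25, 12.22, 12.34, 13.37 and 13.43 in vehicle cells, where it did not dip. Of 40 oxidative phosphorylation genes, 0 passed late against early by limma, and 1 had a called rising slope. Ndufa4, a subunit of the respiratory chain, read 9.62, 10.09, 10.40, 10.26 and 10.65 and Cox4i1 10.12, 10.62, 10.89, 10.70 and 11.09, each lowest at 4 h in treated cells.

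Of 27 cholesterol and fatty acid synthesis genes, 3 fell (11.1%, against 3.65% of all genes) and 0 rose. The desaturase Fads2 read 11.43, 11.39, 11.11, 10.36 and 9.69 and fell by 1.29, and the isoprenoid enzymes Idi1 and Fdps fell by 0.66 and 0.49. The letters TCACNCCAC, an SRE core, were in 1 of 25 promoters of that list (4%) and in 0 of the 2 of its called members, against 1.24% of all. Of 23 glycolysis and hypoxia genes, 1 rose and 3 fell, with the oxygen sensor Egln3 at 10.37, 9.41, 9.36, 8.42 and 8.21, a fall of 1.40, and the peptide hormone Adm at a rise of 0.90. Ferroportin, Slc40a1, which exports iron, read 11.38, 11.16, 11.05, 11.79 and 11.99 and rose by 0.69, against -0.01 in vehicle cells. The brain-type metallothionein Mt3 rose by 0.76 in treated and 1.63 in vehicle cells. Of 30 immediate early genes 2 rose (6.67%, against 4.08% of all genes) and 3 fell (10.0%, against 3.65%). The phosphatase Dusp4 rose by 1.06 and the nuclear receptor Nr4a3 fell by 0.86. Of 25 integrins 2 rose and 2 fell (8.0% each, against 4.08% and 3.65% of all genes), Itga8 by 1.18 and Itgav by 0.78 among the rises. Of 20 endothelial genes 1 rose (5.0%, against 4.08% of all genes) and 2 fell (10.0%, against 3.65%), with the junction gene Esam down by 1.38. Of 15 adipocyte genes the triglyceride enzyme Dgat2 fell by 1.28. Of 11 reference genes, 1 fell (Ywhaz, -0.35), and Hprt read 10.54, 10.99, 10.96, 10.91 and 11.22.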
